A study of Mus musculus with 6 samples.

Results

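Repair of the intestinal epithelium is known to switch on a set of genes that are otherwise high in the fetal gut. Described here in mouse colonic epithelial cells are 9 genes known from this repair: Ly6a, Anxa1, Anxa3, Anxa8, Clu, Msln, Gja1, Il1rl1 and the regulator gene Yap1. They were chosen by name, all 9 were found among the 23725 genes of the table, and 8 passed the filter on low values (3 or more of the 6 libraries with 10 or more normalized reads). Il1rl1 did not pass it. The 3 knockout libraries came from C57BL/6J mice labelled B6-Cg-Nr3c1-Vil-Cre/ERT2 (Nr3c1IEC-/-), in which tamoxifen activates a Cre recombinase driven by the villin promoter of intestinal epithelial cells and Nr3c1, the gene of the glucocorticoid receptor, is deleted there. The 3 wild-type libraries came from mice of the same strain background. According to the labels both groups received tamoxifen into the peritoneum on 5 days in a row, and cells enriched on a Percoll gradient were taken 7 days after the first dose without culture. Whether wild-type mice carried the Cre transgene is not stated in the labels, and neither age nor sex is given in the sources used here. The libraries are separate samples in the labels, but nothing there says that each came from its own animal, so the p-values measure the spread between these samples, which may be technical.

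In a damaged gut, surviving epithelial cells lose much of their crypt stem cell program for a time, spread over the wound and express fetal-type surface and secreted proteins before normal crypts return. The transcriptional coactivator YAP, which the Hippo kinases hold out of the nucleus and which acts on genes through TEAD factors, is known to drive this state in mouse intestine. Annexin A1 is in addition a textbook glucocorticoid-induced protein in leukocytes, where it limits inflammation through formyl peptide receptors. The comparison of knockout with wild type asks how the epithelium differs with and without the receptor.

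Recovered read totals ran between 10089313 and 12030844 per library. Epithelial markers were abundant in all libraries: the summed normalized reads of Epcam, Cdh1, Vil1, Krt8, Krt20, Cdx2 and Cdh17 were 217100 to 246240 in knockout libraries and 195390 to 226030 in wild-type libraries. Krt8 gave more than any other of them, at 130853 ± 12181 in knockout and 130835 ± 11965 in wild type (SD, n = 3 each), while Krt20, Cdh17 and Vil1 rose and Cdx2 fell (limma). Of these calls those of Cdh17, Vil1 and Cdx2 ended without wild type replicate 1 or 2, and that of Cdx2 also without knockout replicate 3. The targeted gene Nr3c1 had 145, 123 and 175 normalized reads in knockout replicates 1, 2 and 3, against 1120 and 967 in wild type replicates 1 and 2 and 197 in the library labelled wild type replicate 3. At the gene that was deleted, this last library thus reads against its label. The changes of the 8 tested genes of the set are also given below without it. Counts per gene can include exons that remain after a deletion.

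Of the 8 genes tested 6 rose in knockout cells and 0 fell, while Gja1 and Yap1 did not pass the threshold (limma, adjusted p under 0.05). The genes that rose were Ly6a, Anxa1, Anxa3, Anxa8, Clu and Msln, and their mean levels were between 3.10-fold and 23.2-fold those of wild-type cells. Among all 12837 genes tested 30.5% were called in either direction, 15.0% raised and 15.4% lowered. The median log2 change of the 8 genes was 2.47, against 0.01 over all genes tested, where 95% of genes lay below 1.51. All 9 genes had every knockout library above every wild-type library, an order seen for 25.2% of the genes tested, although Yap1 owes it to a gap worth less than 1 read. In bulk samples like these, more cells that express a gene cannot be told apart from more of its RNA per cell.

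**Figure D1:**
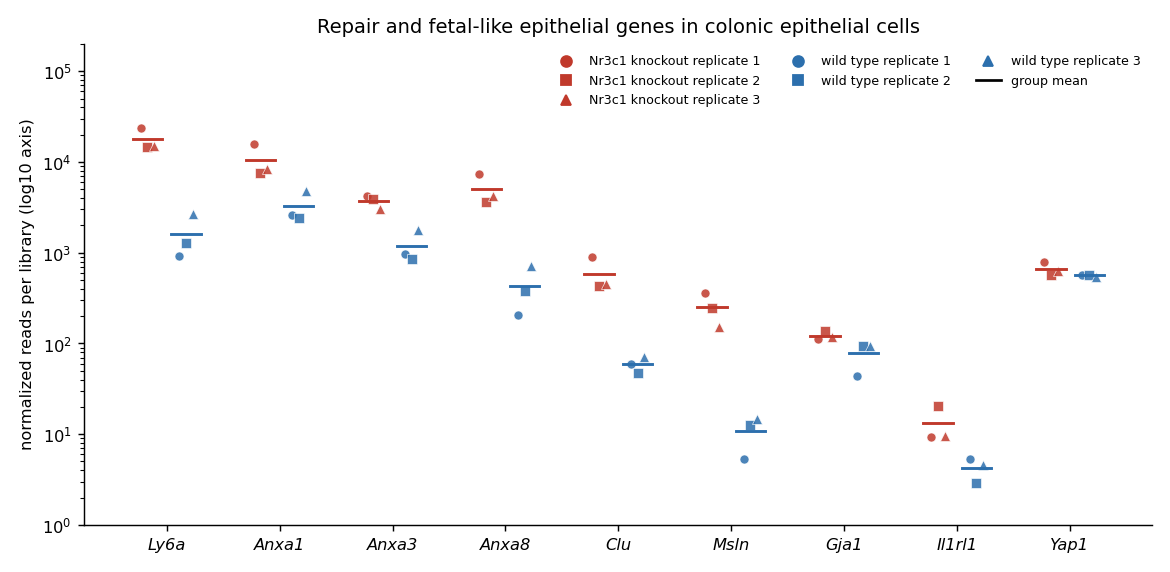
Normalized reads (log axis) of the 9 genes in the 3 knockout libraries and, to their right, the 3 wild-type libraries, with 1 point per library. Knockout points stand far above wild-type points for Ly6a, Anxa8, Clu and Msln, closer for Anxa1 and Anxa3, and nearly level for Yap1.

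Promoter windows of GRCm38.p6 from RefSeq, reaching from 250 bases before to 50 after an annotated start, were at hand for 5 of the 9 genes. Those of Anxa1 and Anxa8 are shown because both annexin genes rose, and that of Yap1 because its level did not pass the test while its partner TEAD binds one of the motifs searched. Capitals mark the TEAD motif GGAATG or its reverse complement, and sequences run 5′ to 3′ along the gene.
Anxa1, chr19:20390622-20390921, minus strand: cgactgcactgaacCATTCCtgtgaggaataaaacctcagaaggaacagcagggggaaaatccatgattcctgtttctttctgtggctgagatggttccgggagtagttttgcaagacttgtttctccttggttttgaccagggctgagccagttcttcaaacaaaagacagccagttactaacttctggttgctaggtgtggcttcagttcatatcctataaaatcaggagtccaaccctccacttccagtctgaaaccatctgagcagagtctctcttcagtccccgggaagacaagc
Anxa8, chr14:34085729-34086028, plus strand: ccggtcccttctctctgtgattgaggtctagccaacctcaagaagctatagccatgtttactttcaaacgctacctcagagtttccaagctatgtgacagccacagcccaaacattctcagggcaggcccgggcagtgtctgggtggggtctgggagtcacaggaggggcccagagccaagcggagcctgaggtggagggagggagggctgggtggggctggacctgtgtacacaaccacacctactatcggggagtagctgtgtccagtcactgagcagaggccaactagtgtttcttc
Yap1, chr9:8004547-8004846, minus strand: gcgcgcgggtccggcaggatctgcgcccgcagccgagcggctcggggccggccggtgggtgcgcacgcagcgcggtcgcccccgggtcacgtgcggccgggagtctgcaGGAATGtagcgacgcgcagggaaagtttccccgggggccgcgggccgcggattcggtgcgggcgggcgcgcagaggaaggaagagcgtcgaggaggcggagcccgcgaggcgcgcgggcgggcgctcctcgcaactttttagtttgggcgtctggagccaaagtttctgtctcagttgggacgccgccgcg
Both strands were searched for 4 motifs, and no matches overlapped. GGAATG was held by 14.7% of 32851 mouse promoter windows of this length, the glucocorticoid receptor half-site AGAACA by 19.0%, the AP-1 motif TGANTCA by 7.81% and the STAT motif TTCNNNGAA by 8.30%. The Anxa1 window held 1 match, to the TEAD motif 236 bases before the start on the opposite strand, and the Yap1 window held 1, to the same motif 141 bases before the start. None of the 4 motifs was found in the Anxa8 window. Of the windows not shown, Gja1 held 1 AP-1 match 19 bases before the start and Il1rl1 held 1 TEAD match in 1 of its 2 windows. A match describes letters in the window and is not a site of binding.

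Among surface proteins, Ly6a (Entrez 110454, GRCm38 chr15:74994877-74998031, minus strand) encodes the GPI-anchored protein Sca-1, which marks repairing, fetal-like epithelium in the mouse colon. Ly6a had 23455, 14621 and 15113 normalized reads in the knockout libraries, against 915, 1269 and 2681 in the wild-type libraries. Every knockout library had at least 5.45 times the level of the highest wild-type library, the one labelled replicate 3. The mean was 17730 ± 4965 in knockout and 1622 ± 934 in wild type (SD, n = 3 each), a log2 change of 3.57 with SE 0.38 and a 95% interval of 2.69 to 4.45 (limma adjusted p = 0.00110). Leaving out the library labelled wild type replicate 3 gave a change of 4.0 (limma adjusted p = 0.000731).

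Ly6a lies among close relatives, and 19.0% of the 50-base stretches of its transcripts also occur in transcripts of other genes, 15.0% in Ly6c1, so the counts of these genes may share reads. All 5 other tested genes of a list of close Ly6 relatives rose too, with a median log2 change of 3.56. Ly6c1 averaged 6102 ± 2342 in knockout and 319 ± 176 in wild type, Ly6c2 1213 ± 508 in knockout and 35.9 ± 21.3 in wild type, and Ly6i 1300 ± 339 in knockout and 120 ± 61.4 in wild type, all as normalized reads (SD, n = 3 each). Their limma adjusted p ran from 0.000736 to 0.00102.

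Msln (Entrez 56047, chr17:25748613-25754378, minus strand) encodes mesothelin, a GPI-anchored protein of mesothelial cells that binds the mucin Muc16 and is also part of the fetal-like epithelial program. It had 359, 247 and 151 normalized reads in the knockout libraries, against 5.31, 12.7 and 14.6 in the wild-type libraries. These groups lay furthest apart of the 9 genes, with the lowest knockout library at 10.4 times the highest wild-type library. Means were 252 ± 104 in knockout and 10.9 ± 4.90 in wild type (SD, n = 3 each), the log2 change was 4.43 with SE 0.43 and a 95% interval of 3.43 to 5.43 (limma adjusted p = 0.000803). Leaving out the library labelled wild type replicate 3 gave 4.68.

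The mesothelial markers Upk3b, Upk1b, Wt1, Lrrn4 and Bnc1 summed to 170, 31.0 and 52.5 normalized reads in the knockout libraries, against 31.8, 38.1 and 58.3 in the wild-type libraries, and 0 of the 1 tested was called. This sum lay below Msln in each knockout library and above it in each wild-type library, and it was highest in knockout replicate 1, as Msln was. Upk1b gave 47.2, 21.7 and 27.7 of these reads in the knockout libraries, against 27.6, 27.4 and 34.6 in the wild-type libraries. Upk3b and Lrrn4 had 59.75 and 48.2 in knockout replicate 1 and at most 14.6 in any other library. The part of mesothelial cells in the Msln level was not tested. Without knockout replicate 1 the log2 change of Msln was 4.14 (limma adjusted p = 0.00117).

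The annexins bind calcium and membrane phospholipids, and all 3 listed here rose. Anxa8 (Entrez 11752, chr14:34085979-34100571, plus strand), an annexin of stratified and repairing epithelia, had 7404, 3586 and 4270 normalized reads in the knockout libraries, against 207, 377 and 706 in the wild-type libraries. The lowest knockout library was at 5.08 times the highest wild-type library. Its means were 5087 ± 2036 in knockout and 430 ± 254 in wild type (SD, n = 3 each), with a log2 change of 3.66, SE 0.44 and a 95% interval of 2.64 to 4.69 (limma adjusted p = 0.00167). The change became 4.11 when the library labelled wild type replicate 3 was omitted, and 3.36 when knockout replicate 1 was.

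Anxa1 (Entrez 16952, chr19:20373434-20390671, minus strand), whose promoter window is printed above, had 15647, 7532 and 8276 normalized reads in the knockout libraries, against 2636, 2400 and 4748 in the wild-type libraries. The groups came close, the lowest knockout library standing at 1.59 times the library labelled wild type replicate 3. It averaged 10485 ± 4486 in knockout and 3261 ± 1293 in wild type (SD, n = 3 each), a log2 change of 1.67 with SE 0.34 and a 95% interval of 0.88 to 2.46 (limma adjusted p = 0.0103). The call held with each library left out, with changes of 1.34 when knockout replicate 1 was omitted and 1.98 when the library labelled wild type replicate 3 was, and adjusted p reached 0.0472 without wild type replicate 1 (limma).

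Anxa3 (Entrez 11745, chr5:96793385-96845968, plus strand), a further annexin of epithelia and leukocytes, varied least of the 6 raised genes among knockout libraries, with 4174, 3883 and 3055 normalized reads, against 963, 849 and 1776 in the wild-type libraries. Again the library labelled wild type replicate 3 was nearest to the knockout, whose libraries had at least 1.72 times its level. Means were 3704 ± 581 in knockout and 1196 ± 506 in wild type (SD, n = 3 each), and the log2 change was 1.70 with SE 0.27 and a 95% interval of 1.07 to 2.33 (limma adjusted p = 0.00453). Omitting the library labelled wild type replicate 3 gave 2.02. The annotated gene Gm42603 overlaps 112 exonic bases of Anxa3 on the same strand, and their reads cannot be told apart there.

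Of the 8 other annexins tested 3 rose and 0 fell, and 5 were not called. Anxa2, a widely expressed membrane annexin, averaged 28085 ± 8023 normalized reads in knockout and 10118 ± 2179 in wild type, and Anxa5, known for binding phosphatidylserine, 1366 ± 390 in knockout and 364 ± 63.2 in wild type (SD, n = 3 each). Anxa4, an epithelial annexin, averaged 6179 ± 624 in knockout and 3499 ± 184 in wild type. The log2 changes were 1.46, 1.88 and 0.82, all with limma adjusted p of at most 0.00506. By contrast Anxa11 averaged 3696 ± 441 in knockout and 3593 ± 348 in wild type, with a log2 change of 0.04 (limma adjusted p = 0.840), and it is named here after its values were seen.

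Clu (Entrez 12759, chr14:65968483-65981548, plus strand) encodes clusterin, a secreted chaperone that marks a rare damage-induced stem cell in mouse intestine. It had 897, 425 and 447 normalized reads in the knockout libraries, against 59.4, 46.9 and 70.1 in the wild-type libraries. Knockout replicate 1 had 2.06 times the mean of the other knockout libraries, and even the lowest knockout library was at 6.07 times the highest wild-type library. The means of 590 ± 267 in knockout and 58.8 ± 11.6 in wild type (SD, n = 3 each) gave a log2 change of 3.23, SE 0.30, with a 95% interval of 2.53 to 3.93 (limma adjusted p = 0.000709). It was 2.89 when knockout replicate 1 was omitted and 3.37 when the library labelled wild type replicate 3 was, both past the threshold.

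The genes that did not pass the test act in communication and control. Gja1 (Entrez 14609, chr10:56377300-56390419, plus strand), the gap junction protein connexin 43, had 111, 136 and 116 normalized reads in the knockout libraries, against 43.5, 94.9 and 94.7 in the wild-type libraries. The lowest knockout library was at 1.17 times the highest wild-type library, and wild type replicate 1 stood apart from the other libraries of its group. Averages were 121 ± 12.8 in knockout and 77.7 ± 29.6 in wild type (SD, n = 3 each), with a log2 change of 0.71, SE 0.31 and a 95% interval of -0.01 to 1.43 (limma adjusted p = 0.114). The log2 change without wild type replicate 1 was 0.34 (limma adjusted p = 0.246), and omitting the library labelled wild type replicate 3 instead gave 0.90 (limma adjusted p = 0.0924).

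Among other connexin genes, a fall was seen for Gjb1. Gjb1, the main connexin of hepatocytes that is also made in gut epithelium, averaged 273 ± 6.23 normalized reads in knockout and 387 ± 15.7 in wild type (SD, n = 3 each, limma adjusted p = 0.0125), and its call ended without wild type replicate 2 (limma adjusted p = 0.0542).

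Yap1 (Entrez 22601, chr9:7931999-8004638, minus strand) was nearly level, with 793, 574 and 624 normalized reads in the knockout libraries, against 574, 573 and 540 in the wild-type libraries. Knockout replicate 1 was the highest, and the other knockout libraries lay at or just above the wild-type range. Means were 664 ± 114 in knockout and 562 ± 19.4 in wild type (SD, n = 3 each), the log2 change was 0.23 with SE 0.14 and a 95% interval of -0.09 to 0.55 (limma adjusted p = 0.238), and it was 0.09 without knockout replicate 1. The upper bound of that interval, 0.55, lies below the smallest change among the 6 raised genes, the 1.67 of Anxa1. Omitting the library labelled wild type replicate 3 gave a log2 change of 0.20 for Yap1 (limma adjusted p = 0.407). YAP is regulated mainly through its phosphorylation and place in the cell, which RNA does not show. A transcript annotated on the opposite strand, Gm20416, overlaps 116 exonic bases of Yap1, and the libraries do not keep strand.

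Il1rl1 (Entrez 17082, chr1:40404864-40465418, plus strand), which encodes the interleukin 33 receptor ST2, was scarce. It had 9.43, 20.7 and 9.55 normalized reads in the knockout libraries, against 5.31, 2.93 and 4.55 in the wild-type libraries. The groups did not overlap, and knockout replicate 2 was the highest library. In recovered reads these are 39 in knockout against 13 in wild type, a ratio of 3.0 not scaled for depth, with an exact 95% interval of 1.57 to 6.13 that covers counting error only. In a fit without the filter the log2 change was 1.37 with SE 0.45 (limma adjusted p = 0.0592).

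**Figure D2:**
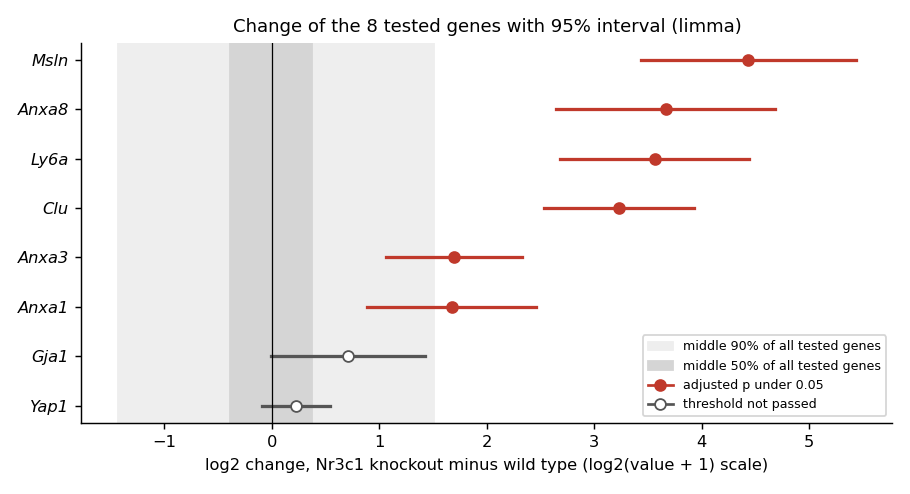
Log2 change, knockout minus wild type, of the 8 tested genes with 95% intervals from limma. The intervals of 6 genes lie above 0, from Msln at 4.43 to Anxa1 at 1.67, and those of Gja1 and Yap1 include 0.

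Scaled to annotated exon length, levels could be compared between the genes. In knockout cells Ly6a led with 14714 ± 4120 normalized reads per kb, followed by Anxa1 with 3602 ± 1541 and Anxa8 with 2706 ± 1083, whose libraries overlapped (SD, n = 3). Next in knockout came Anxa3 with 1017 ± 159, Clu with 172 ± 77.6, Msln with 82.3 ± 33.9 and Yap1 with 71.7 ± 12.4, of which Msln and Yap1 overlapped. Gja1 at 11.8 ± 1.25 and Il1rl1 at 1.92 ± 0.94 normalized reads per kb were lowest in knockout.

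The order differed in wild-type cells. There Ly6a with 1346 ± 775 normalized reads per kb overlapped Anxa1 with 1120 ± 444, and Anxa3 with 328 ± 139 overlapped Anxa8 with 229 ± 135 (SD, n = 3). Yap1 at 60.8 ± 2.09 stood above Clu at 17.1 ± 3.38, whereas in knockout Clu stood above Yap1. Gja1 at 7.57 ± 2.89 and Msln at 3.55 ± 1.599 overlapped in wild type, and Il1rl1 was again lowest at 0.618 ± 0.176 normalized reads per kb.

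Within each group the same libraries tended to be high. Knockout replicate 1 was the highest knockout library for 7 of the 9 genes, from 1.20-fold the mean of the other knockout libraries for Anxa3 to 2.06-fold for Clu. It was not so for Gja1 and Il1rl1, where knockout replicate 2 was highest. The library labelled wild type replicate 3 was the highest of its group for 6 of the 9 genes, at 2.46-fold the mean of the other wild-type libraries for Ly6a, 2.42-fold for Anxa8, 1.96-fold for Anxa3 and 1.89-fold for Anxa1, but 0.942-fold for Yap1.

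**Figure D3:**
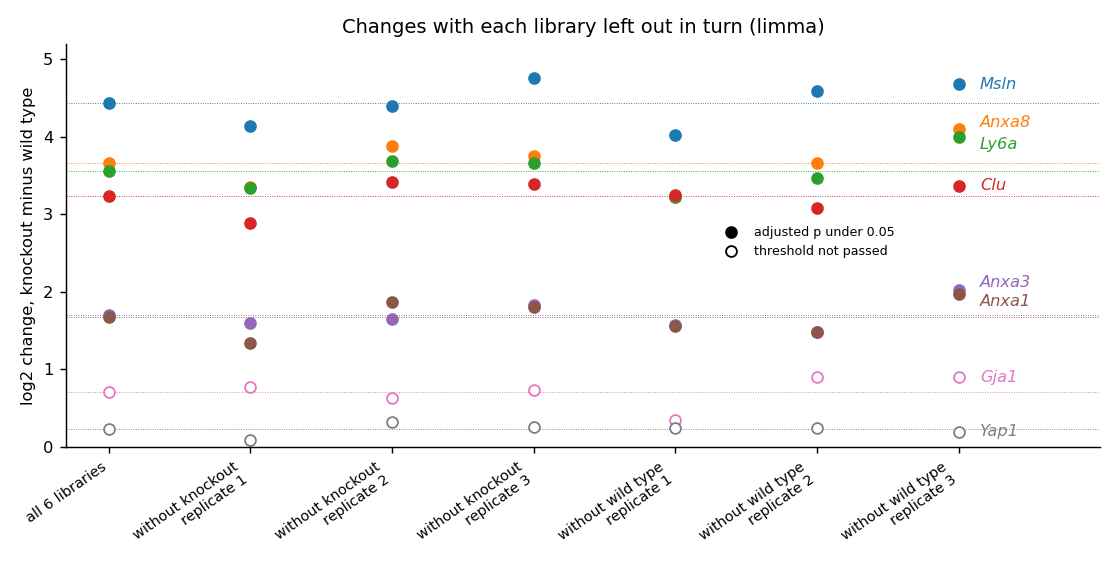
Log2 change, knockout minus wild type, of the 8 tested genes with all 6 libraries and with each library left out in turn; filled points have a limma adjusted p under 0.05 and dotted lines mark the value with all libraries. Points of Ly6a, Anxa1, Anxa3, Anxa8, Clu and Msln are filled throughout, and those of Gja1 and Yap1 are unfilled.

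The number of raised genes was 6 under each of the 16 other settings and left-out libraries, edgeR on recovered reads included. The plot of changes with each library left out shows that the raised genes stood further from wild type once the library labelled wild type replicate 3 was omitted, at 4.0 for Ly6a and 4.11 for Anxa8. They stood closer without knockout replicate 1, at 2.89 for Clu and 3.35 for Ly6a.

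Genes known to bind or signal with these proteins were measured as a list of partners. Of 12 tested 7 rose and 0 fell, with a median log2 change of 0.64. The count was 5 without knockout replicate 3, wild type replicate 1 or 2, and 10 without knockout replicate 2.

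For the annexins, the formyl peptide receptor genes Fpr1 and Fpr2, whose products bind annexin A1, rose, and both were near the floor of detection in wild type. Fpr1 had 106, 72.4 and 33.4 normalized reads in the knockout libraries, against 1.06, 1.96 and 6.37 in the wild-type libraries (log2 change 4.18, limma adjusted p = 0.00308). Fpr2 averaged 40.6 ± 29.8 in knockout and 3.20 ± 1.95 in wild type (SD, n = 3 each, limma adjusted p = 0.0101). These receptors act in leukocytes, as said above, and most myeloid markers, given below, rose as well. The part of myeloid cells in the Fpr1 and Fpr2 levels was not tested. S100a11, whose product pairs with annexin A1, averaged 7549 ± 3022 in knockout and 1830 ± 677 in wild type (limma adjusted p = 0.00438), and S100a10, which pairs with annexin A2, averaged 9549 ± 2920 in knockout and 5492 ± 917 in wild type (limma adjusted p = 0.0358). The S100a10 call ended without knockout replicate 3, wild type replicate 1 or 2.

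Il33, the ligand of the Il1rl1 product, had 936, 157 and 169 normalized reads in the knockout libraries, against 9.55, 8.80 and 7.29 in the wild-type libraries. Knockout replicate 1 was far above the other knockout libraries, and all 3 were above the wild type (log2 change 4.95, SE 0.63, limma adjusted p = 0.00209). Il33 passed the filter on low values only through its knockout libraries. Downstream of the receptor the kinase gene Irak4 averaged 540 ± 10.3 in knockout and 381 ± 12.5 in wild type (SD, n = 3 each, limma adjusted p = 0.00933). The coreceptor gene Il1rap (86.2 ± 30.7 in knockout, 74.8 ± 12.3 in wild type) and the adaptor gene Myd88 (584 ± 138 in knockout, 539 ± 34.1 in wild type) did not pass the threshold, with limma adjusted p of 0.673 and 0.698. Irak1 (810 ± 88.1 in knockout, 625 ± 51.0 in wild type) and Traf6 (380 ± 36.9 in knockout, 297 ± 3.90 in wild type) missed it narrowly, at 0.0521 and 0.0591, and both passed it without knockout replicate 2 and under 1 further setting each.

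Among the remaining partners, Lrp8, a receptor for clusterin, averaged 154 ± 53.0 normalized reads in knockout and 59.2 ± 28.3 in wild type (SD, n = 3 each, limma adjusted p = 0.0328), a call that ended without knockout replicate 1 or 3 or wild type replicate 1 or 2. Tjp1, the junction protein ZO-1 that binds connexin 43, averaged 1732 ± 315 in knockout and 1398 ± 164 in wild type (limma adjusted p = 0.184), and passed without knockout replicate 2 (limma adjusted p = 0.0491).

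Other genes of repairing or fetal-like epithelium were mostly higher or not called. Of 25 tested 10 rose and 1 fell, with a median log2 change of 0.68. The number raised became 7 on leaving out wild type replicate 1 and 13 on leaving out knockout replicate 2. Besides Anxa2, Anxa5 and Il33, already described, the genes that rose included Krt7, Basp1, Ptgs2, Ereg and Ly6d. Ptgs2, the inducible cyclooxygenase, had 372, 115 and 271 normalized reads in the knockout libraries, against 16.98, 23.5 and 27.3 in the wild-type libraries (log2 change 3.29, limma adjusted p = 0.00208). Ly6d, a surface protein of stratified epithelium, had 3061, 326 and 832 in the knockout libraries, against 8.49, 4.89 and 14.6 in the wild-type libraries (log2 change 6.62, limma adjusted p = 0.00136).

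The gene that fell was Hbegf, a growth factor ligand of the EGF receptor, with 5389 ± 547 normalized reads in knockout and 11935 ± 1960 in wild type (SD, n = 3 each, limma adjusted p = 0.00270).

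Genes of the Hippo pathway other than Yap1 mostly did not pass the test. Of 21 tested 2 rose and 2 fell, with a median log2 change of 0.10. The rises were Amotl1, a scaffold that binds YAP, at 95.3 ± 4.87 normalized reads in knockout and 28.4 ± 2.58 in wild type (limma adjusted p = 0.00125), and Tead4, a DNA-binding partner of YAP, at 77.0 ± 39.6 in knockout and 26.1 ± 7.01 in wild type (SD, n = 3 each, limma adjusted p = 0.0253). The falls were those of relatives of Amotl1, namely Amotl2, at 110 ± 19.3 in knockout and 211 ± 42.2 in wild type (limma adjusted p = 0.0131), and Amot, at 132 ± 35.03 in knockout and 249 ± 59.4 in wild type (limma adjusted p = 0.0249). Single libraries decided part of these calls: Tead4 was lost without wild type replicate 1 or 2, and Amot without knockout replicate 2, wild type replicate 1 or 2.

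Known targets of YAP and TEAD, none of them among the 9 genes, moved both ways. Of 16 tested 6 rose and 4 fell, with a median log2 change of 0.13. Without the filter on low values 4 rose and 5 fell. With a pseudocount of 0.5, robust priors or library weights 4 rose and 4 fell. Nt5e, the surface 5′-nucleotidase CD73, had 1421, 2320 and 2135 normalized reads in the knockout libraries, against 201, 448 and 576 in the wild-type libraries (log2 change 2.36, limma adjusted p = 0.00449). Ccn1, a matricellular protein and widely used YAP target, had 1028, 1113 and 1949 in the knockout libraries, against 5328, 4376 and 2826 in the wild-type libraries (log2 change -1.63, limma adjusted p = 0.00731). Crim1, a membrane protein that binds bone morphogenetic proteins, averaged 211 ± 9.25 in knockout and 434 ± 36.1 in wild type (SD, n = 3 each, limma adjusted p = 0.00145).

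The other falls were Amotl2, given above, and Gadd45a, a stress-response gene, at 1031 ± 141 normalized reads in knockout and 1662 ± 304 in wild type (SD, n = 3 each, limma adjusted p = 0.0169). Ccn2, a further matricellular target named here after its values were seen, had 74.4, 24.8 and 80.2 in the knockout libraries, against 2.12, 18.6 and 16.4 in the wild-type libraries (limma adjusted p = 0.0476), and the call ended in 9 of its 15 other fits, every left-out library but knockout replicate 2 included. The other rises were Dock5, Myof, Arhgef17 and Axl, which are named here after their values were seen. Each had every knockout library above every wild-type library, with limma adjusted p of 0.00861, 0.0218, 0.0315 and 0.0486 in this order. The number of raised targets was 3 without knockout replicate 1 or 3 or wild type replicate 1 or 2.

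**Figure D4:**
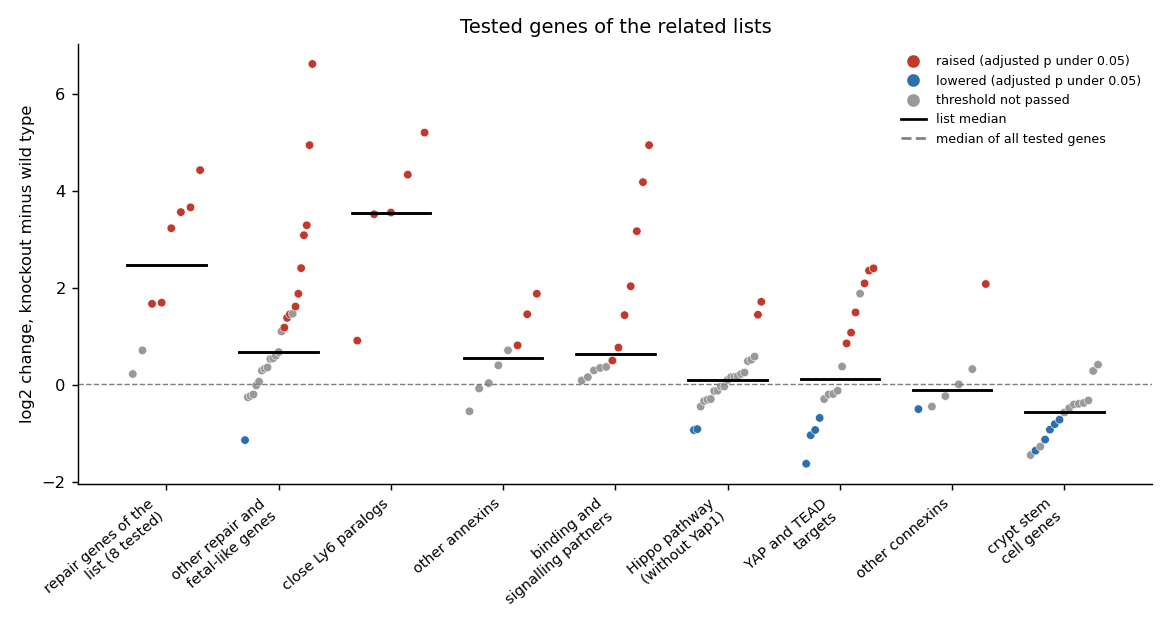
Log2 change, knockout minus wild type, of every tested gene of the 9-gene set and of 8 related gene lists, with 1 point per gene, coloured by its limma call, and a line at each median. The medians are 2.47 for the repair genes, 3.56 for the other Ly6 genes, near 0 for Hippo genes and YAP targets and -0.57 for crypt stem cell genes.

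For each tested gene the most similar patterns over the 6 libraries were found as the smallest root-mean-square difference of centred log2(value + 1), among genes with a mean of at least 50. Anxa1 was nearest to S100a14 at 0.031 and S100a16 at 0.091, and Yap1 to Desi1 at 0.032 and Bcl7b at 0.035. Ly6a was nearest to its relative Ly6i at 0.084 and to the neutrophil chemokine gene Cxcl3 at 0.149, and Anxa8 to Cxcl3 at 0.090 and Ly6a at 0.162. These distances describe 6 libraries in 2 groups and carry no test.

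Less close neighbours were found for the other genes. Msln was nearest to the protease inhibitor gene Slpi at 0.156 and to Mmp9 at 0.240, Anxa3 to Rab32 at 0.157 and Gk at 0.182, Gja1 to Nipal2 at 0.158 and Fam214b at 0.191, and Clu to Coro1a at 0.251 and Stom at 0.270. Coro1a encodes a leukocyte actin-binding protein and averaged 148 normalized reads in knockout and 20.03 in wild type.

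Markers of other cells moved with these groups too. Of 10 myeloid markers tested 7 rose and 0 fell, and their sum was 4244, 1806 and 2518 normalized reads in the knockout libraries, against 644, 1032 and 1286 in the wild-type libraries. This sum, like the level of each of the 6 raised genes, was highest within its group in knockout replicate 1 and in the library labelled wild type replicate 3. Ptprc, a gene of all leukocytes and the only tested member of the list for T and innate lymphoid cells, rose as well, and that list summed to 375, 135 and 217 in the knockout libraries, against 64.7, 55.7 and 91.1 in the wild-type libraries. Ptprc alone gave 252, 100.4 and 119 of these reads in the knockout libraries, against 43.5, 33.3 and 50.1 in the wild-type libraries. Gata3, which did not pass the filter, had 72.3, 9.31 and 42.0 in the knockout libraries, against 2.12, 2.93 and 1.82 in the wild-type libraries. The rest of that list had at most 15.3 in any library. The part of myeloid and lymphoid cells in the results was not tested.

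Stratified squamous markers were higher in knockout, with 3 of 5 tested raised and sums of 3970, 575 and 1080 normalized reads in the knockout libraries, against 43.5, 37.2 and 77.4 in the wild-type libraries. Ly6d made up most of the knockout sums. The keratin genes Krt13, at 169 ± 111 in knockout and 2.04 ± 1.91 in wild type, and Krt6a, at 141 ± 153 in knockout and 12.3 ± 8.33 in wild type (SD, n = 3 each), also rose (limma adjusted p = 0.000776 and 0.0240), the Krt6a call ending without knockout replicate 3 or wild type replicate 1 or 2. Krt14, at 85.8 ± 87.7 in knockout and 17.8 ± 3.64 in wild type, missed the threshold (limma adjusted p = 0.0749). Krt4, at 31.3 ± 23.2 in knockout and 1.34 ± 0.68 in wild type, and Krt5, at 18.6 ± 20.2 in knockout and 1.56 ± 1.41 in wild type, did not pass the filter, and the basal cell marker Trp63 was at 0 in knockout replicate 2 and in all wild-type libraries. Anxa8 is also expressed in such epithelia, and the part of squamous cells in its level was not tested.

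For fibroblasts, which also express Gja1, Clu and Il33, the sums were 2128, 374 and 741 normalized reads in the knockout libraries, against 172, 340 and 548 in the wild-type libraries. The groups overlapped, and 1 of 5 tested was raised (Dcn, lost without knockout replicate 1 or 3 or wild type replicate 1 or 2). Their part in the levels of these genes was not tested. Endothelial markers summed to 27.9 to 50.6 in the knockout libraries and 50.8 to 53.1 in the wild-type libraries, with 0 of 2 tested called, and smooth muscle markers to 539 to 622 in knockout and 519 to 689 in wild type, with 0 of 3 called. Markers of B and plasma cells summed to 51.7 to 185 in knockout and 11.7 to 78.3 in wild type, with 0 of 1 called, and those of enteric glia to at most 3.82 in knockout and 8.80 in wild type, with Sox10 and Gfap at 0.

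Mast cells express Il1rl1, and of 3 tested genes of their marker list 2 rose, while only Kit fell. Their sum was 362, 156 and 219 normalized reads in the knockout libraries, against 345, 460 and 262 in the wild-type libraries. Kit alone gave 32.5, 95.2 and 84.0 of these reads in the knockout libraries, against 338, 450 and 253 in the wild-type libraries, so the wild-type sums mostly show Kit. Cpa3, Mcpt4 and Fcer1a, which did not pass the filter, were at 0 in all wild-type libraries and at most 6.29 in knockout. Tpsb2, also below the filter, had at most 4.25 in any library. Mcpt1 and Mcpt2, proteases of mucosal mast cells, rose to 95.1 ± 84.8 and 68.9 ± 46.5 in knockout, against 4.15 ± 2.91 and 1.94 ± 0.89 in wild type (SD, n = 3 each, limma adjusted p = 0.00853 and 0.00204), while Kit fell to 70.6 ± 33.4 in knockout, against 347 ± 98.6 in wild type (limma adjusted p = 0.00570). Ms4a2, a mast cell receptor chain, was at 0 in all libraries. Whether mast cells or other leukocytes contribute to the few Il1rl1 reads, or mast cells to those of Kit, was not tested.

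**Figure D5:**
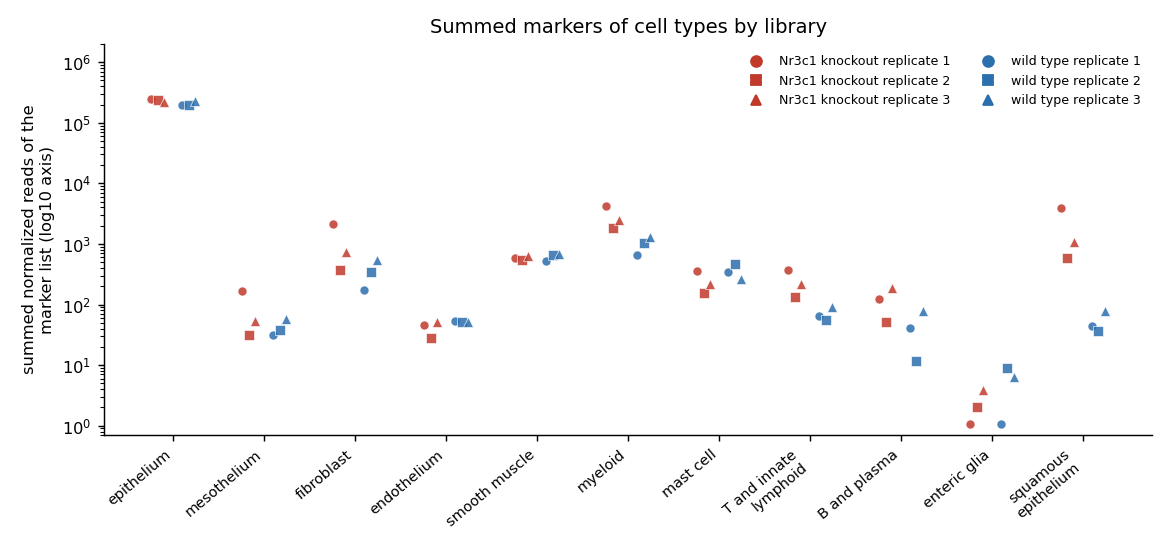
Summed normalized reads (log axis) of marker lists of epithelium and other cell types in the 3 knockout libraries and, to their right, the 3 wild-type libraries. Epithelial sums lie far above all others in every library, and the sums of myeloid, T and innate lymphoid (which include Ptprc) and squamous lists are higher in all 3 knockout libraries than in the wild type.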

How the data were processed

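Non-stranded mRNA libraries of enriched colonic epithelial cells were sequenced, 3 per genotype. The deposited table holds a normalized signal: read counts per gene that the authors scaled with a size factor of each library. The submitters' processing notes name FastQC, TopHat, DESeq2 and the build mm10 without versions, while counter and annotation were not given in the sources used here. In every library 100% of the values were whole reads within 0.001 after division by 1 step, and 0 columns of other samples were present. Of 23725 gene identifiers 23666 matched a symbol in RefSeq's GRCm38.p6, from which coordinates and promoter windows also come. Exon lengths, gene overlaps and shared stretches of transcripts come from the GENCODE annotation of GRCm38. The length of a gene joins the exons of all its transcripts, so levels per kb depend on this choice.

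Knockout and wild type were compared with limma 3.58.1 (R 4.3.3, intensity-dependent prior) on log2(value + 1), which understates the change of low genes. Testing covered the 12837 genes for which 3 or more of 6 libraries reached 10 normalized reads, two-sided, with Benjamini-Hochberg adjustment over all of them and a threshold of 0.05. Every adjusted p is from this limma fit unless another is named. Il33, Fpr1, Fpr2, Basp1, Mcpt1, Mcpt2 and Krt13 were under 10 normalized reads in every wild-type library. They entered the test only through high knockout libraries, so their p-values and their share in the counts of raised genes depend on that selection. The script was tested on simulated data. Alternatives were each library left out, pseudocounts of 0.5 and 5, no filter, a filter at 50, TMM scaling, quantile normalization, robust priors, weights per library, and, on the recovered reads, edgeR 4.0.16 (3893 genes called, against 3910) and DESeq2 1.42.0.

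The 9 genes and all gene lists were chosen with earlier results of these data known, and the lists are no independent evidence. The text names Nr3c1, the 9 genes, up to 3 called genes per list with the smallest p, all tested partners and 2 nearest patterns per gene; a few named marker genes fall outside this rule and were chosen after their values were seen. Some genes that the rule names are left out of the text. Replicate numbers only follow accession order, and no batch is given. Libraries of a group differed beyond sampling noise (chi-square over degrees of freedom 15.0 to 57.5). Intervals on reads cover counting error only.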

Additional observations from a re-analysis of the deposited data

How the results depend on the processing

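The number of raised genes among the 8 tested stayed at 6, and of lowered genes at 0, under all 16 alternatives. Over all genes 3910 were called, and 1923 to 3607 with 1 library left out; the counts fell to 1923 and 1960 on omitting wild type replicate 1 or 2. Log2 changes ranged from 3.23 to 4.0 for Ly6a, 1.34 to 1.98 for Anxa1, 1.49 to 2.02 for Anxa3, 3.23 to 4.11 for Anxa8, 2.89 to 3.42 for Clu, 3.99 to 4.76 for Msln, 0.34 to 0.90 for Gja1 and 0.09 to 0.32 for Yap1. For Nr3c1 the log2 change ranged from -2.82 to -1.57, and its call ended without any 1 of knockout replicates 1, 2 and 3 or wild type replicates 1 and 2. A further count covers 48 other genes: Nr3c1, those that the naming rule takes from the lists, Ccn2, Tead4 and Hbegf. Of their 761 values 718 kept their side of the threshold, 38 lost it, 5 gained it and 0 reversed. Other genes named in the text, Cdx2, Gadd45a, Lrig1, Axin2 and Krt14 among them, are not in this count. The median log2 change over all genes lay between -0.0013 and 0.0302 in every fit. No paired analysis was possible because the replicate numbers only follow accession order. With 3 libraries a group, the changes of Gja1 and Yap1 were not told from 0, and Il1rl1 is limited by its 39 reads in knockout and 13 in wild type.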

Other observations

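Genes of crypt stem cells, which the repair state is known to replace for a time, were lower or not called in the knockout libraries. Of 15 tested 0 rose and 5 fell, with a median log2 change of -0.57, and 3 fell when wild type replicate 1 or 2 was left out. The genes that fell were Sox9, Znrf3, Rgmb, Lrig1 and Axin2. The stem cell markers Lgr5, Ascl2 and Smoc2 were not called, and their groups overlapped. Their log2 changes were -0.57, -0.48 and -0.40 (limma adjusted p = 0.352, 0.527 and 0.492). Prom1 and Ephb2 had changes above 0, at 0.42 and 0.29, and did not pass the threshold either (limma adjusted p = 0.0870 and 0.194). Rgmb, a coreceptor for bone morphogenetic proteins, had 101, 130 and 126 normalized reads in the knockout libraries, against 257, 223 and 199 in the wild-type libraries (limma adjusted p = 0.00703). Lrig1, a receptor that restrains EGF signalling and marks crypt progenitors, had 541, 869 and 886 in the knockout libraries, against 1290, 1268 and 1135 in the wild-type libraries (limma adjusted p = 0.0282), and is named after its values were seen. Sox9, a transcription factor of the crypt base, averaged 261 ± 58.1 in knockout and 664 ± 89.2 in wild type, and Znrf3, a ligase that removes Wnt receptors, 46.8 ± 3.44 in knockout and 104 ± 7.79 in wild type (SD, n = 3 each, limma adjusted p = 0.00233 and 0.00399). Knockout replicate 1, the highest knockout library for all 6 raised repair genes, was the lowest of its group for Rgmb, Lrig1, Axin2 and Znrf3 but not for Sox9.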
